A study of Saccharomyces cerevisiae with 4 samples.

Results

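The genes described here are the 69 ribosome assembly factor genes of budding yeast, Saccharomyces cerevisiae, that carry one of 13 family names. The rule that picks them uses names and no measured value, taking reading frames whose standard name is UTP, NOC, NSA, RPF, RRP, RLP, NOP, ENP, NOG, LTV, TSR, KRR or RIX followed by digits, and they make up 69 of the 7126 identified rows of the expression table. RRP6, NOP1, NOP10, NOP56 and NOP58 were left out by that rule. The UTP, RRP and NOP families supply 18, 17 and 13 of the genes, and the remaining families between 1 and 4 each.

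Making a ribosome starts with transcription of a long precursor rRNA in the nucleolus. Assembly factors bind the precursor while it is being made, fold it with the help of snoRNAs, guide its cleavage and leave again before the subunits translate. The small subunit grows inside a large particle called the small subunit (SSU) processome or 90S pre-ribosome, whereas the large subunit passes through a series of pre-60S particles. In yeast most of these genes belong to the ribosome biogenesis regulon, which growing cells transcribe strongly and stressed cells turn down. Promoters of the regulon are known for a pair of short elements, the PAC element, bound by the repressors Dot6 and Tod6, and the RRPE element, bound by Stb3.

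RNA came from 2 libraries of the strain BTY115, called dbp2null (MATa dbp2::KanMx ura3Δ0 leu2Δ0 his3Δ0 TRP1 met- lysΔ), and 2 libraries of wild type (MATa his3Δ1 leu2Δ0 met15Δ0 ura3Δ0). Both were grown at 30 °C in the rich glucose medium YPD to early log phase, and rRNA was depleted from total RNA. The strains differ at the marker genes as well as at DBP2, which encodes a DEAD-box RNA helicase, so the deletion and the strain background cannot be told apart. Nothing used here says how separate the cultures behind the libraries of a genotype were, so the spread, and the p-values built on it, may be partly technical. In bulk RNA, a lower level per cell and a smaller share of expressing cells cannot be told apart either.

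Values are FPKM, fragments scaled to gene length and to the mapped fragments of the library, as the authors deposited them. Although they are per length, the ratio between the dbp2null libraries still followed gene length, as given below. This limits comparisons between short and long genes. DBP2 read 2.90 and 1.03 FPKM in dbp2null libraries, against wild-type values of 213 and 199 FPKM, as the labels have it. The summed FPKM of dbp2null replicate 2 was 3.37e+06, against 3.22e+07 to 5.29e+07 in the other 3 libraries. Read depth is not given in the sources used here, so no counting interval can be attached to any value.

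The genes lie on 14 of the 16 nuclear chromosomes (R64 assembly), and 68 of 69 have a single coding exon. Only UTP9 and RIX1 (tandem, chromosome VIII, 237 bases apart) and RRP15 and NOC4 (convergent, chromosome XVI, 689 bases apart) are next-door neighbours among protein-coding genes. What most of them share is the promoter. In the 300 bases before the start codon, the PAC core GATGAG, read on both strands, occurred in 57 of 69 genes (82.6%), against 19.1% of 6001 nuclear protein-coding promoters of that length. The longer form GCGATGAG, which contains the core, occurred in 46.4% of the genes and 4.05% of promoters. The RRPE core AAAAATTT, also on both strands, occurred in 54 of 69 (78.3%) against 15.1%, and both elements together in 45 of 69 (65.2%) against 5.60%. Matches are letters in a window and do not show that a factor binds there.

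Matches clustered at similar distances, with overlapping copies counted separately. Positions in other promoters were not set beside them. The first base of the PAC core lay at a median of 117 bases before the start codon, with 79 of 93 matches between 200 and 50 bases before it. That of RRPE lay at a median of 134 bases, with 66 of 75 matches in the same interval, so that RRPE tends to stand a little further upstream. RRP45, RRP46 and UTP22 held neither core. TSR2 held RRPE but no GATGAG.

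**Figure D1:**
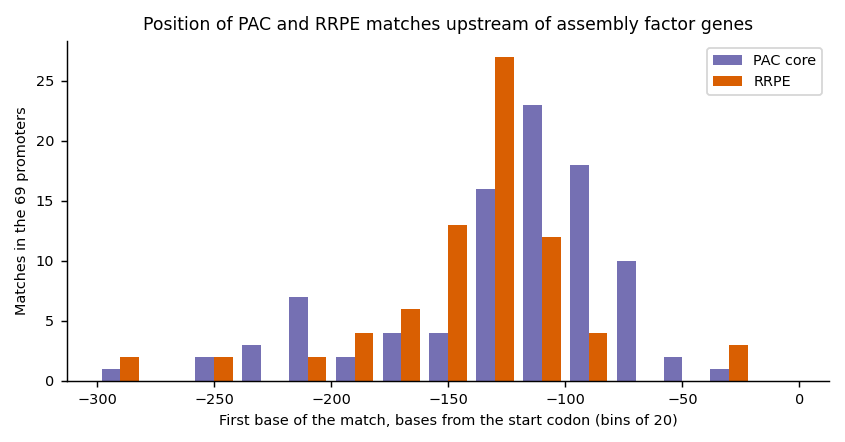
Number of matches to the PAC core (purple) and RRPE (orange) in the 300 bases before the start codon of the 69 genes, by distance of the first base of the match from the start codon in bins of 20 bases. Most matches lie between 200 and 50 bases upstream, 79 of 93 for PAC and 66 of 75 for RRPE, with overlapping copies counted separately.

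The stretches below are shown because they hold the elements in 2 sets of genes that the values turn on: RRP14, NOP7, RRP5, NOP13 and NOP8, which with TSR2 had the largest differences between the genotypes and which hold both elements, and RLP24, RLP7, NOP15 and NSA2, the most abundant. They were read from RefSeq's R64 genome, 5′ to 3′ along the strand of the gene, and capitals mark matches to the PAC core (GATGAG, or CTCATC on the other strand, with GC before it where the long form is met) and RRPE (AAAAATTT, or AAATTTTT on the other strand). Overlapping copies run together.
RRP5, chrXIII:731254-731315, minus strand: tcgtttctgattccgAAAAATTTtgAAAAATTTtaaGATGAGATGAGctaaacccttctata
NOP13, chrXIV:308691-308755, minus strand: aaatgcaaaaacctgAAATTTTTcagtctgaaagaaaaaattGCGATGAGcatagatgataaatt
NOP7, chrVII:695262-695334, plus strand: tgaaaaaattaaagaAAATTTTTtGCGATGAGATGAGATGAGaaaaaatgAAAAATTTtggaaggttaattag
NOP8, chrXV:52965-53019, plus strand: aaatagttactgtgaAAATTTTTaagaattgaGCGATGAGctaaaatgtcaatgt
RRP14, chrXI:282404-282507, minus strand: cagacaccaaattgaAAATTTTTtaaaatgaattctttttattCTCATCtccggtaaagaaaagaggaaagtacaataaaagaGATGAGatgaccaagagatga
RLP24, chrXII:166237-166361, plus strand: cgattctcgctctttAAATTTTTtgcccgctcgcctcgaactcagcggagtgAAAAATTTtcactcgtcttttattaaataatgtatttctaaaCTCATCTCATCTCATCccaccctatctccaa
RLP7, chrXIV:627217-627295, minus strand: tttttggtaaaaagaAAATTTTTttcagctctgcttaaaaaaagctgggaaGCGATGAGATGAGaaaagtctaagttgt
NOP15, chrXIV:418573-418656, minus strand: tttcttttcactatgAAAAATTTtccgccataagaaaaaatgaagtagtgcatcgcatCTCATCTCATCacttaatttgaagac
NSA2, chrV:414290-414427, minus strand: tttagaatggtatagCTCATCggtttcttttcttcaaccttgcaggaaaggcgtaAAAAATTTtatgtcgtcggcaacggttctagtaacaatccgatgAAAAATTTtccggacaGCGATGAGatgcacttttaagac

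All 69 genes were above 0 in every library. In wild type their mean levels ran from 17.5 FPKM (RRP14) to 381 FPKM (RLP24) with a median of 70.2 FPKM, against a median of 31.0 FPKM over all 6781 features tested. Genes of the small subunit side had a median of 59.8 FPKM over 35 genes and a coefficient of variation of 46.2%, and those of the large subunit side 113 FPKM over 24 genes and 66.9%. The 5 genes at 200 FPKM or more were all pre-60S factors, RLP24, RLP7, NOP15, NSA2 and NOP7. Shorter genes had higher FPKM (Spearman's rho -0.48 between length and wild-type level across the 69 genes, which are not independent replicates).

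None of the 69 genes passed the test between genotypes. Differences were tested by limma on log2(FPKM + 1) over the 6781 features whose mean reached 1 FPKM, where an adjusted p below 0.05 called 81 features (1.19%). At an unadjusted p below 0.05 there were 5 of the 69, RRP5, RRP14, TSR2, NOP8 and NOP13, against 37.9% of all features. The log2 fold change (dbp2null over wild type) ran from -0.99 for TSR2 to 1.03 for RRP14. The 95% interval of the difference lay within a doubling and a halving, between -1 and 1 on the log2 scale, for 39 of 69 genes, with a median width of 0.67 to either side. For the other 30 a change of that size is not excluded by these libraries.

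Most genes read a little lower in dbp2null. The log2 fold change was negative in 50 and positive in 19, with a median of -0.13, while the median of all features was 0.28, so that 61 of 69 genes lay below it. Their direction is set by the scale, since the median became 0.67 with protein-coding features rescaled to one sum, -0.47 with median centring and 0.01 with quantile normalization. Relative to all features it was -0.41 under the first 2 of these, as without them, and 0.02 with quantile normalization. Both dbp2null values lay below both wild-type values in 23 genes (33.3%, against 20.7% of all features) and above both in 10 (14.5%, against 49.8%), and in 36 the genotypes overlapped.

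In FPKM as deposited, the median difference between genotypes, -0.13, was no larger in size than the median difference between libraries of one genotype. With each set against its all-feature median, the genotype difference was the largest in size, at -0.41. Wild type replicate 2 read lower than replicate 1 in 66 of 69 genes, with a median log2 ratio of -0.19. TSR2, RRP40 and RRP46 were the exceptions. In dbp2null, replicate 2 read lower than replicate 1 in 59 of 69, with a median of -0.26. Over all 6781 features the wild-type count was 4950, with a median of -0.17. The dbp2null count over all features was 3732, with a median of -0.09. Set against the wild-type mean, dbp2null replicate 1 alone had a median difference of -0.03 and replicate 2 alone of -0.26. Over all features these medians were 0.37 and 0.23, so the genes lay below all features in both libraries.

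**Figure D2:**
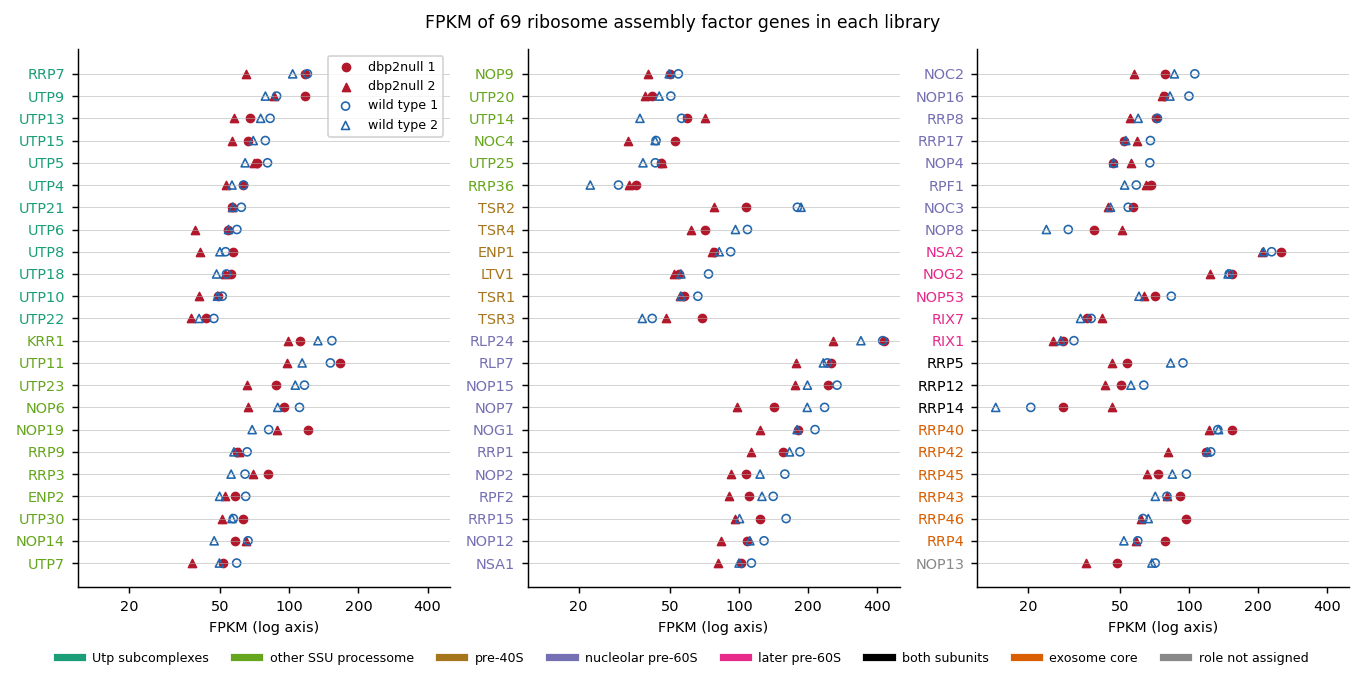
FPKM (log axis) of each gene in the 2 dbp2null libraries (red, filled) and the 2 wild-type libraries (blue, open), circles for replicate 1 and triangles for replicate 2, with gene names coloured by role and sorted by wild-type level within a role. The symbols of the genotypes overlap in 36 of 69 genes. Log2 fold changes were largest in size in RRP14 and NOP8, with the dbp2null symbols to the right, and in TSR2, NOP7, RRP5 and NOP13. In those last genes the dbp2null symbols lie to the left. None of the genes named here passed the test.

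The spread between the dbp2null libraries followed gene length. Among the 23 genes under 1000 bases, 22 read lower in dbp2null replicate 2 than in replicate 1, with a median log2 ratio of -0.45. The 19 genes of 2000 bases or more had a median of -0.16, and 13 of them were lower. Across the 69 genes Spearman's rho between length and that ratio was 0.41, and it was -0.02 for the wild-type pair. Over 5884 protein-coding features above 0 in every library the rho was 0.60 for dbp2null and -0.31 for wild type. The part of this library difference in any fold change below was not tested.

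**Figure D3:**
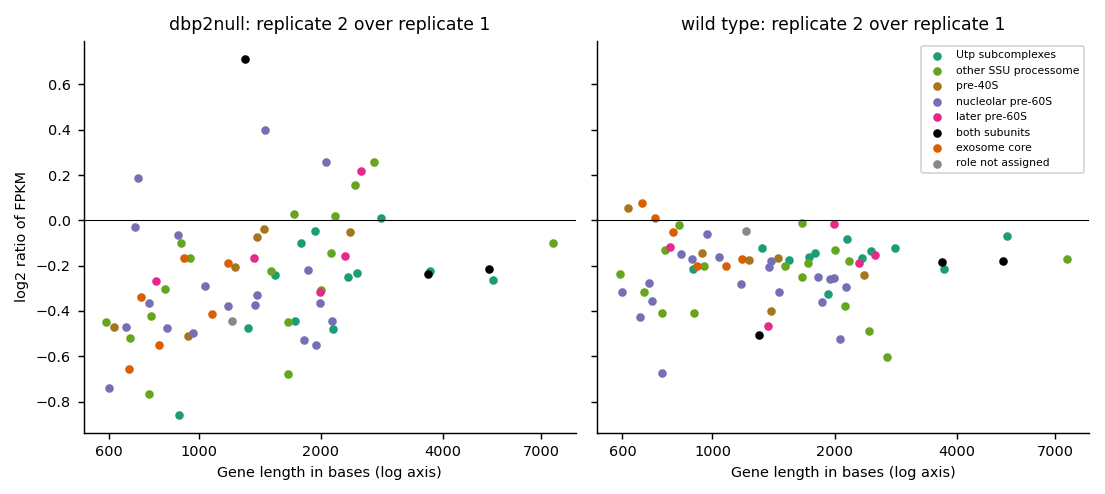
Log2 ratio of FPKM between the 2 libraries of each genotype (replicate 2 over replicate 1) against gene length in bases (log axis), 1 point a gene, coloured by role. In dbp2null (left) 22 of 23 genes under 1000 bases lie below 0, while in wild type (right) 66 of 69 genes do, whatever their length.

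Genes of the first group build the backbone of the SSU processome. The UtpA complex, the earliest to bind the precursor, is represented by UTP4, UTP5, UTP8, UTP9, UTP10 and UTP15, the UtpB complex by UTP6, UTP13, UTP18 and UTP21, and the UtpC complex by UTP22 and RRP7. These 12 genes were the most even in level of the role groups, with a coefficient of variation of 29.0% in wild type. UtpA genes ran from 49.9 FPKM (UTP10) to 83.4 FPKM (UTP9) in wild type, a 1.67-fold range, and UtpB genes from 50.8 FPKM (UTP18) to 78.8 FPKM (UTP13), a 1.55-fold range. Their log2 fold changes lay between -0.35 and 0.26, with a median of -0.10, and 10 of 12 had an interval within a doubling and a halving.

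UTP9 was the highest of the 12 in log2 fold change, at 117 and 85.7 FPKM in dbp2null libraries, against wild-type values of 88.1 and 78.7 FPKM, so that the genotypes overlapped. RRP7, at the other end, read 118 and 64.8 FPKM against 119.96 and 103 FPKM. Its value in dbp2null replicate 1 lay between those of wild type and its value in replicate 2 below both. UTP22, its partner in UtpC, was the lowest in level of the 12 and read 43.3 and 37.2 FPKM against 47.0 and 40.5 FPKM.

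The other 17 SSU processome genes spread further, from -0.55 for UTP23 to 0.49 for UTP14, with a median log2 fold change of -0.04. In 3 (17.6%) both dbp2null values lay below wild type and in 5 (29.4%) above, against 20.7% and 49.8% of all features. UTP23, whose product is needed for release of the snoRNA snR30, read 87.6 and 65.3 FPKM against 116 and 106 FPKM. UTP14, which encodes an activator of the helicase Dhr1, read 59.1 and 70.7 FPKM against 56.2 and 37.0 FPKM. Both dbp2null values of UTP14 lay above wild type, but replicate 1 of the genotypes nearly met and the wild-type libraries lay far apart.

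KRR1, for a KH-domain protein of the processome, was the most abundant of these genes and read 111 and 99.0 FPKM against 153 and 133 FPKM, without overlap (log2 fold change -0.44 with SE 0.29, adjusted p = 0.319 by limma). RRP36, the least abundant, read 35.5 and 33.2 FPKM against 29.8 and 22.5 FPKM. RRP3, for a DEAD-box helicase, read 81.1 and 69.4 FPKM against 64.2 and 55.8 FPKM, higher in both libraries and without a call (log2 fold change 0.32 with SE 0.24, adjusted p = 0.365 by limma).

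Among the pre-40S genes, those for the later small subunit particle, 4 of 6 (66.7%) had both dbp2null values below wild type and 1 (16.7%) had both above, against 20.7% and 49.8% of all features. TSR2, whose product carries the ribosomal protein Rps26 to its place, had the lowest log2 fold change of the 69. It read 108 and 77.6 FPKM in dbp2null libraries, against wild-type values of 179 and 186 FPKM (log2 fold change -0.99 with SE 0.32 and 95% interval -1.84 to -0.14, adjusted p = 0.0995 by limma). The genotypes were well apart, and the dbp2null libraries differed more than the wild-type ones.

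TSR4, for the chaperone of Rps2, read 71.1 and 61.6 FPKM against 109 and 96.5 FPKM. TSR3, for the enzyme that adds the aminocarboxypropyl group to 18S rRNA, went the other way, at 68.7 and 48.2 FPKM against 41.9 and 37.9 FPKM (log2 fold change 0.52 with SE 0.25, adjusted p = 0.205 by limma). The remaining genes of this group, ENP1, LTV1 and TSR1, had log2 fold changes of -0.17, -0.26 and -0.10.

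Nucleolar pre-60S genes leaned lowest among the larger groups, with 16 of 19 negative, against 2556 of 6781 features. Their median log2 fold change was -0.22, with no call. Their wild-type levels were also high, with a median of 119.9 FPKM. Against protein-coding features of similar level, described below, 14 of the 19 lay within the quartiles, 4 above and 1 below. Both dbp2null values lay below wild type in 7 (36.8%, against 20.7% of all features) and above in 2 (10.53%, against 49.8%). NOP7, which forms the PeBoW complex with Erb1 and Ytm1, read 141 and 98.1 FPKM against 236 and 198 FPKM (log2 fold change -0.87 with SE 0.36, adjusted p = 0.156 by limma). NOP2, for an rRNA cytosine methyltransferase, read 107 and 91.8 FPKM against 158 and 123 FPKM, and NOC2, whose product travels with Noc1 and then Noc3, 78.5 and 57.7 FPKM against 106 and 86.5 FPKM. These 3 genes were lower in both dbp2null libraries.

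NOP8 had the highest log2 fold change of the group, although it was not called. Its product is a nucleolar factor needed for 60S subunits, and it read 38.7 and 51.0 FPKM in dbp2null libraries, against wild-type values of 29.8 and 24.0 FPKM (log2 fold change 0.71 with SE 0.23 and 95% interval 0.10 to 1.32, adjusted p = 0.0999 by limma). It had the lowest wild-type level of the group. RPF1, for a Brix-domain protein, was the other gene with both values above wild type, at 68.2 and 65.1 FPKM against 59.0 and 52.5 FPKM.

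Apart from NOP7, the genes of this group at 200 FPKM or more had dbp2null replicate 1 close to or between the wild-type libraries. RLP24, for a placeholder of the ribosomal protein Rpl24, read 426 and 255 FPKM against 422 and 339 FPKM. RLP7, which encodes a relative of the ribosomal protein Rpl7, read 251 and 178 FPKM against 242 and 233 FPKM. NOP15, for a factor of the second internal spacer, read 243 and 175 FPKM against 267 and 198 FPKM. NOP15 lies 1544 bases from DBP2 on chromosome XIV with 1 gene, CYB5, between them, and its genotypes overlapped.

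The 5 genes of later pre-60S steps had the narrowest range of the role groups, with log2 fold changes from -0.13 to 0.12. The genotypes overlapped in all 5, against 2001 of 6781 features. NSA2, for a pre-60S factor, read 252 and 209 FPKM against 229 and 211 FPKM. RIX1, for a subunit of a complex that marks nucleoplasmic particles, was lowest in level at 28.4 and 25.5 FPKM against 31.6 and 27.7 FPKM. RIX7, for the AAA ATPase that removes Nsa1, read 35.9 and 41.8 FPKM against 37.5 and 33.7 FPKM. For 4 of the 5, including RIX1 and RIX7, the interval lay within a doubling and a halving.

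NOG2, for a GTPase that holds back nuclear export, is the gene with 2 coding exons, and its intron holds the snoRNA snR191, which overlaps it by 274 bases on the same strand. NOG2 read 154 and 124 FPKM against 149.8 and 148 FPKM. snR191 read 35151 and 11103 FPKM in dbp2null libraries, against wild-type values of 8986 and 12218 FPKM, so it did not move with its host in replicate 1. How fragments of the intron were shared between both genes is not given in the sources used here.

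RRP5, RRP12 and RRP14 serve both subunits and split. RRP5, a large RNA-binding protein gene required for cleavages on both sides, read 53.8 and 46.4 FPKM in dbp2null libraries, against wild-type values of 94.3 and 83.3 FPKM (log2 fold change -0.82 with SE 0.23 and 95% interval -1.43 to -0.20, adjusted p = 0.0827 by limma), the smallest adjusted p of the 69. RRP12, for an export factor, read 50.6 and 43.0 FPKM against 63.6 and 56.0 FPKM. RRP14 had the highest log2 fold change of the 69 and the lowest wild-type level, at 28.3 and 46.4 FPKM against 20.5 and 14.4 FPKM (log2 fold change 1.03 with SE 0.32 and 95% interval 0.19 to 1.87, adjusted p = 0.0910 by limma). In all 3 the genotypes did not overlap, where over all features they overlapped in only 2001 of 6781.

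NOP13, whose product is a nucleolar RNA-binding protein of pre-ribosomes with no agreed step, read 48.5 and 35.7 FPKM against 71.4 and 69.02 FPKM (log2 fold change -0.74 with SE 0.24, adjusted p = 0.101 by limma). Both dbp2null values lay below wild type.

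The RRP names of the RNA exosome core, the complex that trims the 5.8S precursor, were the role group with a positive median log2 fold change. It was 0.11, still below the all-feature median of 0.28. Of the 6 genes 4 were positive, where over all features 4225 of 6781 were. Set against the wild-type mean, replicate 1 of dbp2null put their median at 0.24, whereas replicate 2 put it at -0.11. The positive median was thus seen with replicate 1 only, and it lay below the all-feature median of 0.37 for that library. For replicate 2 the all-feature median was 0.23. RRP4, for a cap subunit, read 78.5 and 59.0 FPKM against 59.9 and 52.1 FPKM. RRP40, also of the cap and the most abundant of the 6, read 154 and 122 FPKM against 134 and 135 FPKM. RRP45, a ring subunit gene, read 73.7 and 65.7 FPKM against 97.5 and 84.7 FPKM, with both dbp2null values below wild type. RRP43 was the gene with both values above, at 91.8 and 80.6 FPKM against 80.2 and 71.4 FPKM.

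**Figure D4:**
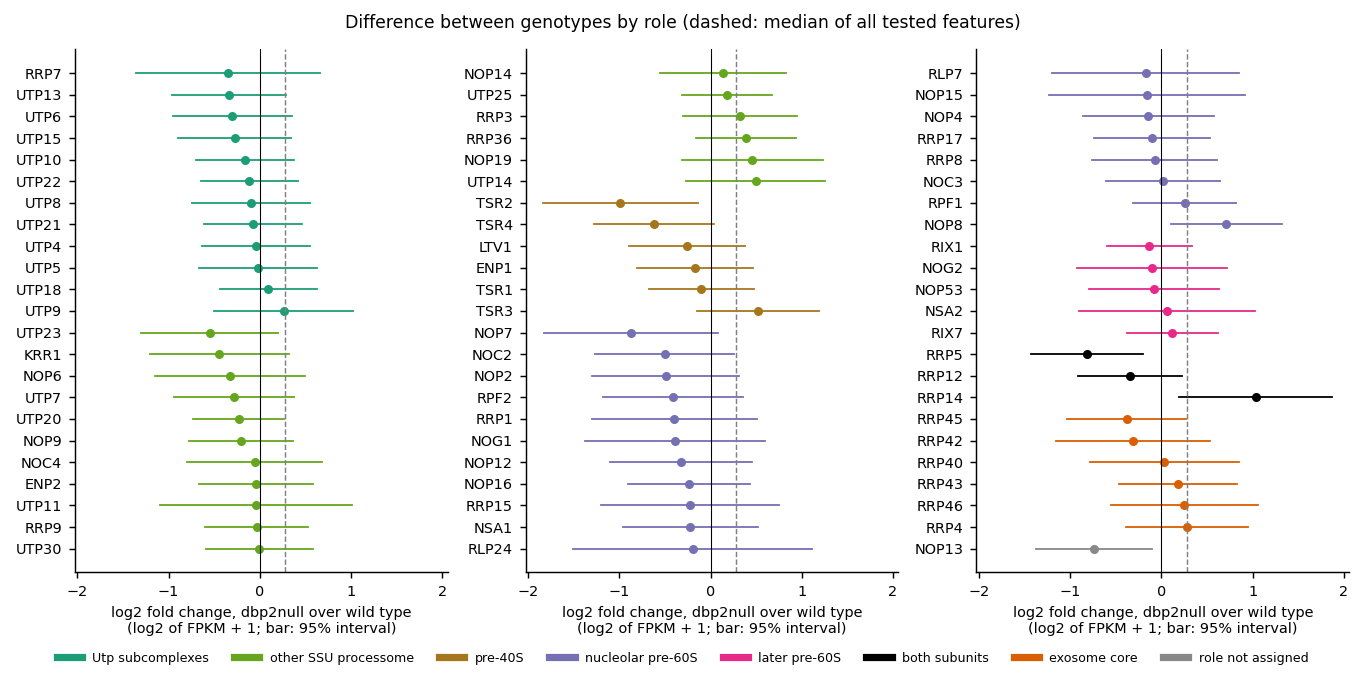
Log2 fold change of each gene (dot) with its 95% interval from limma (bar), ordered within a role, coloured by role; the solid line is 0 and the dashed line the median of all tested features, 0.28. The dots run from -0.99 for TSR2 to 1.03 for RRP14, and the intervals of TSR2, NOP8, RRP5, RRP14 and NOP13 leave out 0.

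How a gene differed went with its level. Among all protein-coding features, weak ones read higher and strong ones lower in dbp2null, with a median log2 fold change of 0.51 for a mean over the 4 libraries of 20 to 40 FPKM, 0.08 for 40 to 60, -0.17 for 60 to 80, -0.35 for 80 to 120, -0.49 for 120 to 200 and -0.72 for 200 to 500 FPKM. The assembly genes in the same classes had medians of 0.39 (5 genes), -0.10 (24), -0.03 (11), -0.32 (16), -0.40 (9) and -0.16 (4). In 43 of 69 genes the value lay within the quartiles of its class, in 10 below and in 16 above. RRP14 lay above its class and NOP8 within it, whereas TSR2, NOP7, RRP5 and NOP13 lay below theirs.

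A pair of gene sets lay mostly above their classes, and both were noticed after the values were seen. The 4 genes of the highest class, RLP24, RLP7, NOP15 and NSA2, were all above its upper quartile of -0.21. Of the 6 exosome genes, RRP4, RRP40, RRP43 and RRP46 were above theirs and none was below. No test was made of either.

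**Figure D5:**
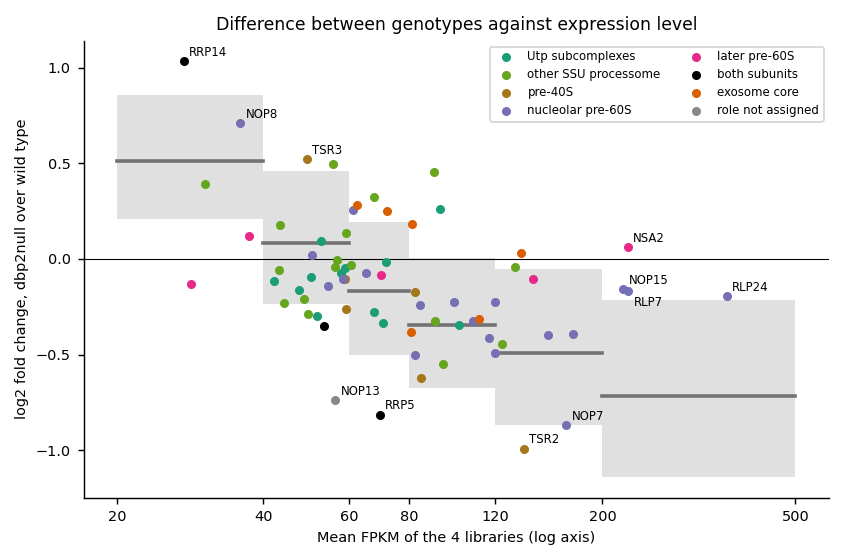
Log2 fold change of the 69 genes (dots, coloured by role) against the mean FPKM of the 4 libraries (log axis), over the median (grey line) and quartiles (grey band) of all protein-coding features in each level class. The band falls from a median of 0.51 at 20 to 40 FPKM to -0.72 at 200 to 500 FPKM, and 43 of 69 dots lie inside it.

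Median differences lay between -0.22 and -0.11 whatever the promoter held. The 45 genes with both elements had a median log2 fold change of -0.11 and spanned -0.87 to 1.03. The 12 with GATGAG alone had a median of -0.13 (-0.40 to 0.46) and the 3 with neither -0.12 (-0.38 to 0.25). The 9 with AAAAATTT alone had a median of -0.22 and spanned -0.99 to -0.0051. RRP14, the highest of the 69, and NOP7, the lowest but for TSR2, both hold PAC and RRPE matches, as the stretches above show.

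Assembly factors outside the families were set beside the 69. Of 71 such genes from a hand-written list, 46 were negative and 25 positive with a median of -0.14 and none was called by limma, with 3 at an unadjusted p below 0.05. In 26 both dbp2null values lay below wild type (36.6%) and in 8 above (11.3%), where all features had 20.7% and 49.8%. The lowest were RRS1, for the partner of Rpf2 in 5S particle recruitment (196 and 118 FPKM against 324 and 290 FPKM), NUG1, for a nuclear GTPase (127 and 86.1 against 196 and 184 FPKM), and NIP7 (268 and 137 against 310 and 377 FPKM).

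PXR1, for a G-patch protein that activates a helicase, came nearest to a call of either list. It read 28.3 and 29.9 FPKM in dbp2null libraries, against wild-type values of 13.2 and 11.9 FPKM (log2 fold change 1.15 with SE 0.17, adjusted p = 0.0559 by limma). It was called higher with a pseudocount of 5 (limma adjusted p = 0.0466), as were 380 of 6781 features. Among features above 0 in all libraries (limma adjusted p = 0.0266) 1119 of 6545 were called higher. At lengths of 300 bases or more (limma adjusted p = 0.00601) 1772 of 5712 were. PXR1 was not called with quantile normalization (limma adjusted p = 0.223), protein-coding rescaling (0.563) or without the trend (0.114). Its log2 fold change was 1.19 without dbp2null replicate 1 and 1.12 without replicate 2. JJJ1, for a cytoplasmic co-chaperone of pre-60S maturation, read 25.3 and 39.8 FPKM against 21.0 and 13.7 FPKM, and REA1, for the giant ATPase also called Mdn1, 28.2 and 36.2 against 25.4 and 21.5 FPKM. Both dbp2null values lay above wild type in all 3. Of the 71 promoters, 87.3% held GATGAG and 87.3% AAAAATTT.

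The names that the rule left out had a median log2 fold change of -1.23, with RRP6 apart from the rest. NOP1, NOP56 and NOP58, core proteins of box C/D snoRNPs, read 283 and 163, 149 and 77.3, and 163 and 105 FPKM in dbp2null against 517 and 546, 254 and 251, and 248 and 217 FPKM in wild type. Their log2 fold changes were -1.30, -1.23 and -0.82 and none was called by limma, NOP1 and NOP56 being at an unadjusted p below 0.05. NOP10, for a protein of the box H/ACA snoRNPs, read 15890 and 2269 against 19587 and 16937 FPKM, and its dbp2null libraries lay far apart. RRP6, the nuclear exosome nuclease gene, read 47.2 and 44.7 against 53.1 and 46.3 FPKM, a log2 fold change of -0.11 close to the median of the 69.

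Calls among the 69 appeared under a few settings. Among features of at least 300 bases, an alternative chosen after the data were seen, RRP14 and NOP8 were called higher (31% of features were) and TSR2, RRP5 and NOP13 lower (5.85% were), with limma adjusted p from 0.0217 to 0.0399. Without dbp2null replicate 1, 6 genes were called lower, TSR2, NOP13, NOP7, RRP5, UTP23 and RRP42, and none higher, against 21.2% and 15.8% of all features. That fit has 1 dbp2null library, which is assumed to vary like the wild-type pair, the only source of its spread. Without dbp2null replicate 2 there was no call, and the log2 fold change of RRP14 was 0.68 (limma adjusted p = 0.232) and that of TSR2 -0.76 (limma adjusted p = 0.0977).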

How the data were processed

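RNA levels of 69 ribosome assembly factor genes were compared between 2 dbp2null and 2 wild-type libraries. The authors deposited 1 table of FPKM, a column per library. Per the submitters' processing notes, the tools were TopHat, Cufflinks, CASAVA and edgeR with sacCer3 as build; roles and versions are unknown here. After 3 blank rows were dropped, 7126 rows remained, 6169 matched by name to RefSeq R64, the assembly that sacCer3 denotes. Whole-read steps were looked for in the 500 lowest values per library. Between 11.4% and 13.2% lay within 0.05 of a whole multiple, against 10% by chance, so depth stayed unknown and FPKM was not turned into counts. FPKM depends on all mapped fragments of a library, so a change in abundant short RNAs shifts every gene.

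The 6781 features whose mean reached 1 FPKM entered a limma fit (version 3.58.1, R 4.3.3) of log2(FPKM + 1) without covariates, using its mean-variance trend, two-sided tests and Benjamini-Hochberg adjustment over all features. The script was tested on simulated data. With 2 libraries a group, an exact permutation test cannot go below p = 0.333. Level classes used the mean over all 4 libraries. Promoters were the 300 bases before each RefSeq start codon.

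The members, role lists and the list of 71 other factors were chosen with earlier results of these data known. Genes were named by rule: called genes; in each role list the highest and lowest by wild-type level and by log2 fold change, or the whole list where it has 4 genes or fewer; NOP15 and NOG2; and the 3 highest and 3 lowest other factors. Further genes in the text were added after their values were seen. Alternatives covered pseudocounts of 0.1 and 5, filters, 3 rescalings, a fit lacking the trend, blocking on replicate number, omission of each library, and an adjusted p below 0.1. A crossed block, a fit of features of at least 300 bases and one of features never at 0 were chosen after seeing the data.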

Additional observations from a re-analysis of the deposited data

How the results depend on the processing

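Counts over all features moved most. Against 81 calls there were 8 with a pseudocount of 0.1, 425 with 5, 13 with a mean of at least 10 FPKM, 13 with median centring, 5 with quantile normalization, 41 without the trend, 2102 at an adjusted p below 0.1, and, as added later, 1198 among features never at 0 and 2106 with a length of at least 300 bases. Leaving out a library gave 0 (wild type replicate 1), 6 (wild type replicate 2), 90 (dbp2null replicate 2) and 2512 (dbp2null replicate 1). Of the 69 genes, 0 were called under the settings as reported. There were 2 higher and 2 lower at an adjusted p below 0.1, 2 higher and 3 lower among features of at least 300 bases, and 0 to 6 lower on leaving out a library (0 higher). The same-numbered libraries deviated with r = -0.11 over all features and -0.38 over the 69 genes, so the numbers were not taken as pairs. The replicate block gave 16 calls over all features and 0 among the 69, and the crossed replicate block 2667 and 2, both higher.

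The relative median of the 69 stood at -0.41 and reversed to 0.024 with quantile normalization; that of the other factors, -0.42, reversed to 0.044. The cause was not tested. It was -0.49 among features of at least 300 bases and -0.49 to -0.39 on leaving out a library. Genes with both dbp2null values on one side of wild type numbered 33, 59 with median centring, 21 with protein-coding rescaling and 42 to 59 on leaving out a library, where fewer samples make separation easier.

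Of 510 single-gene checks, 454 kept direction and side of the threshold, 27 gained a call and 29 were marked as changed in direction relative to all features. With quantile normalization these were UTP9 (0.63), RRP4 (0.36), RRP40 (0.61), NSA2 (1.21), RLP24 (1.12), NOP15 (0.77), NOG2 (0.50), KRR1 (0.090), RRP36 (-0.072) and REA1 (-0.026). RRP4 sits at the all-feature median itself, at a relative value of 0, so its entries among the 29 mark no change of direction. It read -0.0052 and 0.013 with pseudocounts of 0.1 and 5, 0.00037 without a filter, 0.031 with a mean of at least 10 FPKM, 0.0087 with protein-coding rescaling, 0.0057 among features never at 0, -0.081 with a length of at least 300 bases, and -0.15 to 0.11 on leaving out a library. UTP9 read 0.00053 with a pseudocount of 5 and 0.013 with a mean of at least 10 FPKM. On leaving out a library UTP9 ranged from -0.18 to 0.11, RIX7 from -0.36 to 0.00099, RRP36 from -0.016 to 0.24, UTP14 from -0.011 to 0.44 and REA1 from -0.11 to 0.38. Depth is unknown, so what it limits cannot be stated.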
